A study of Mus musculus with 12 samples.

Results

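Protocadherins are the largest subfamily of cadherins, the calcium-dependent adhesion proteins of the cell surface. Every protein-coding gene whose symbol starts with Pcdh was taken from the count matrix of W-20 cells, which gave 71 genes of the 56980 in the matrix. They comprise 15 alpha, 22 beta and 22 gamma genes, which lie in a row of clusters on chromosome 18, and 12 non-clustered genes. W-20 is a mouse bone marrow stromal cell line, and bulk RNA-Seq was done in 4 groups of 3 libraries. WT cells (W20) and cells of the stable line named Y428F, which carries an introduced Flag-tagged YAP in which the tyrosine of that name is replaced by phenylalanine, were each exposed for 2 hours to 50 nM PTH or to vehicle (PBS). The methods name CMV plasmids as backbones of the mutant lines and also a lentiviral PGK vector with puromycin resistance, do not state which promoter drove the introduced YAP, and say that positive clones were selected with puromycin. The study names the line compared with WT cells both as S381A/Y428F, with a further serine-to-alanine substitution, and as Y428F alone, as the titles do. The genotype label of the Y428F libraries reads WT, so the group was taken from the titles. No library of cells with introduced wild-type YAP was analysed, and the substitutions, the introduced protein and the selection of the line cannot be told apart. The libraries held 17127897 to 19057319 counts each (median 17740980), so 3 counts corresponded to 0.152 to 0.185 CPM, the library-scaled counts of edgeR with TMM factors. Total *Yap1* expression, which counts the endogenous gene and possibly part of an introduced copy, was 189 ± 7.20 CPM (SD, n = 3) in vehicle-treated WT cells and 147 ± 4.64 CPM (SD, n = 3) in vehicle-treated Y428F cells, so it does not check the label.

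Clustered protocadherins are best known from neurons, where each cell expresses its own subset of the genes and the proteins bind like with like between cells, which lets a neuron tell its own branches from those of others. In the alpha and gamma clusters each gene is a variable exon with its own promoter that is spliced to constant exons shared by the whole cluster, whereas beta genes are single exons with no shared part. CTCF and cohesin loop chosen promoters to distant enhancers, and DNA methylation silences the promoters that are not chosen. Non-clustered protocadherins each have a full gene of their own and act in cell sorting and in tissue shaping. Because of the constant exons, RSEM divided the reads that alpha or gamma genes have in common between them, and values of single genes in these clusters are less certain than those of the cluster as a whole. Beta genes are close copies of each other, the annotated genes of *Pcdhb9* and *Pcdhb10* and of *Pcdhb21* and *Pcdhb22* overlap, and whether the counting used strand is not given in the sources used here.

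W-20 cells expressed 1 gamma gene at a high level, a broad set of beta genes, the gamma genes *Pcdhga10* and *Pcdhga9* and 3 non-clustered genes at lower levels, and almost no alpha gene. Of the 71 genes, 40 had a mean of at least 0.5 CPM over the 12 libraries, 8 had 0 counts in every library and 20 had fewer than 10 counts in all. In WT cells with vehicle, length-scaled expression (TPM, from counts and annotated exon length) summed to 724 for the gamma genes, 362 for the beta genes, 76.6 for the non-clustered genes and 0.166 for the alpha genes. *Pcdhgc3*, a C-type gamma gene, made up 83.0% ± 0.724 (SD, n = 3) of the gamma TPM in these libraries. The beta cluster had no gene of such weight, and its highest gene, *Pcdhb5*, held 25.0% ± 0.0611 (SD, n = 3) of the beta TPM. *Pcdhb16*, *Pcdhb9* and *Pcdhb17* followed with 12.5%, 11.9% ± 0.848 (SD, n = 3) and 11.2%, and *Pcdhb9* differed from both neighbours in this order by less than its spread. *Pcdh18* held 55.8% and *Pcdh19* 37.8% of the non-clustered TPM. The heat map of the 40 genes shows these levels by library.

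**Figure D1:**
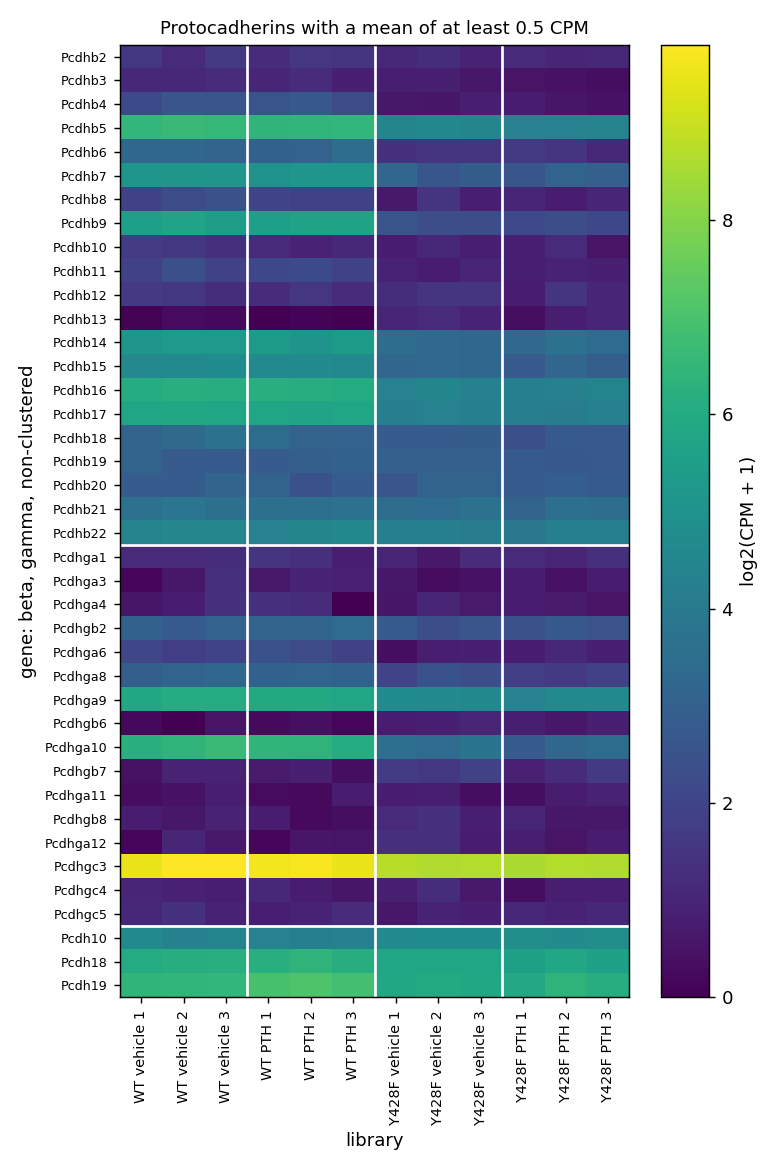
Expression of the 40 protocadherins with a mean of at least 0.5 CPM (rows, in genomic order within the beta, gamma and non-clustered classes) in each of the 12 libraries (columns), as log2(CPM + 1). Pcdhgc3 is the brightest row in every library, and many beta rows and Pcdhga10 are darker in the 6 Y428F libraries than in the 6 WT libraries.

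The alpha cluster was nearly silent in all 4 groups. Its 15 genes, which lie from 37063237 to 37320716 on chromosome 18 of GRCm39 (plus strand, GENCODE vM39), had 69 counts in all 12 libraries together and between 2 and 13 counts in any library. *Pcdha9* was the highest, with 30 of these counts, and had 2, 5 and 3 counts in WT and 3, 4 and 4 counts in Y428F libraries with vehicle. With PTH it had 2, 4 and 0 counts in WT and 0, 1 and 2 counts in Y428F libraries. *Pcdha5* and *Pcdha10* had 7 counts each over the 12 libraries, and 4 alpha genes had none. *Pcdha9* was the single alpha gene with enough counts to be tested, and none of the 5 comparisons passed the limit for it. The alpha sum was 0.317, 0.284 and 0.161 CPM in the WT vehicle libraries and 0.548, 0.657 and 0.491 CPM in the Y428F vehicle libraries, which did not overlap (2.22-fold higher). With PTH the sums were 0.201 ± 0.145 and 0.241 ± 0.0871 CPM (SD, n = 3 each) and the lines overlapped. These sums rest on a few counts per library and were not tested. Among the genes without counts was *Pcdha4b*, an annotated model that runs from the alpha into the gamma cluster.

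Most beta protocadherins were lower in Y428F cells. Their summed expression was 425, 462 and 438 CPM in the WT vehicle libraries and 145, 151 and 146 CPM in the Y428F vehicle libraries. With PTH it was 426, 424 and 432 CPM in WT and 125, 142 and 139 CPM in Y428F cells. The 6 WT libraries thus lay close together and far above the 6 Y428F libraries. The mean was 442 ± 18.6 CPM (SD, n = 3) in WT against 148 ± 3.32 CPM (SD, n = 3) with vehicle, which is 2.99-fold lower in Y428F cells, and 3.17-fold lower with PTH. Each library is bulk RNA, so fewer cells that express a gene and less RNA of it per cell cannot be told apart.

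**Figure D2:**
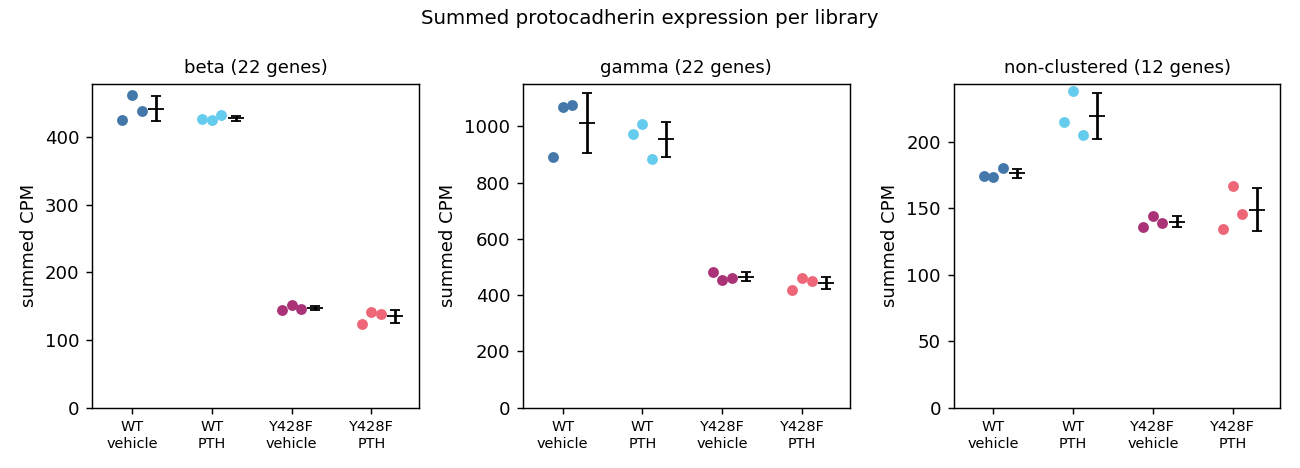
Summed CPM of the beta, gamma and non-clustered protocadherins in each library (points, 3 per group), with the mean and SD of each group in black beside them. The Y428F libraries lie below the WT libraries in all 3 panels when groups with the same exposure are compared, by 2.99-fold for the beta and 2.17-fold for the gamma genes with vehicle.

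Each gene was tested by quasi-likelihood in edgeR, with p-values adjusted by Benjamini-Hochberg over all genes, and a gene was called at an adjusted p under 0.05. With vehicle, 51 protocadherins were tested, of which 22 (43.1%) were lower and 6 (11.8%) higher in Y428F cells. Over all 17691 genes tested, 22.7% were lower and 22.4% higher. With PTH, 22 protocadherins were lower and 5 higher, beside 23% and 22.8% of all genes. Of the higher genes, *Pcdhb13*, *Pcdhgb1* and *Pcdh15* reached the filter of 10 counts in total only through the Y428F libraries. Their direction was thus partly fixed by that filter. The comparisons with vehicle and with PTH share no libraries, but come from the same fit and the same lines, so they are not independent. Of the genes called with PTH, 21 of the lower and all 5 of the higher had the same call with vehicle. The median log2 difference with vehicle was -1.50 over the 21 beta genes tested, -0.40 over the 21 gamma genes and 0.12 over the 8 non-clustered genes, beside 0.01 over all genes. When genes with a group at or under 3 counts were set at their bound, the medians of the gamma and non-clustered genes became -0.05 and 0.

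Of the 21 beta genes tested, 14 (66.7%) were lower and 1 (4.76%) was higher in Y428F cells with vehicle, beside 22.7% and 22.4% of all genes. With PTH the counts were again 14 and 1, with *Pcdhb3* in place of *Pcdhb10*, beside 23% and 22.8% of all genes. *Pcdhb5*, the beta gene with the most expression (ENSMUSG00000063687.4, from 37453434 to 37456968 on chromosome 18), had 88.9, 96.7 and 91.3 CPM in the WT vehicle libraries and 21.2, 22.5 and 21.7 CPM in the Y428F vehicle libraries. Its groups were far apart (log2 fold change -2.08, standard error 0.061, adjusted p = 5.47e-16), and with PTH the log2 fold change was -2.14. *Pcdhb9* (ENSMUSG00000051242.2, from 37533908 to 37550127) fell the most of the beta genes, from 44.9, 52.0 and 42.8 CPM to 4.87, 3.94 and 4.15 CPM. That is a 10.8-fold lower expression (log2 fold change -3.43, standard error 0.11, adjusted p = 1.15e-15), and with PTH it was 13.1-fold lower. Its share of the beta TPM was 11.9% ± 0.848 (SD, n = 3) in WT against 3.49% ± 0.480 (SD, n = 3) in Y428F vehicle libraries. *Pcdhb4*, at lower counts, had 3.65, 4.95 and 4.88 CPM in the WT vehicle libraries and 0.548, 0.505 and 0.764 CPM in those of Y428F cells, a log2 fold change of -2.88. For all 3 genes every WT library was above every Y428F library, with vehicle and with PTH. The other beta genes that were lower and lie before *Pcdhb18* had log2 fold changes between -2.39 (*Pcdhb7*) and -1.10 (*Pcdhb10*) with vehicle, as named after their values were seen.

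*Pcdhb16* and *Pcdhb17*, which lie next to each other near the 3′ end of the cluster, were lower by a smaller factor. *Pcdhb16* had 66.9, 70.7 and 67.3 CPM in the WT vehicle libraries and 19.6, 21.8 and 19.001 CPM in the Y428F vehicle libraries, and was 3.39-fold lower (adjusted p = 6.38e-14). *Pcdhb17* had 53.4, 57.2 and 52.9 CPM and 17.2, 19.5 and 18.02 CPM, and was 2.98-fold lower (adjusted p = 6.16e-13). Neither gene had overlapping groups. As shares of the beta TPM both were about as large in Y428F as in WT cells, with 11.6% against 12.5% for *Pcdhb16* and 11.8% against 11.2% for *Pcdhb17*.

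*Pcdhb13* was the exception within the cluster and was nearly absent from WT cells. It had 1, 4 and 3 counts in the WT vehicle libraries and 19, 26 and 18 in the Y428F vehicle libraries, and 0, 1 and 0 against 5, 14 and 20 counts with PTH. All Y428F libraries were above all WT libraries. With vehicle the ratio was 7.70 (95% exact interval of the pooled counts 3.68 to 18.6, counting error only), and the adjusted p was 0.000606. With PTH the ratio of 36.4 rested on 1 WT count and its interval ran from 6.16 to 1474. Its neighbour *Pcdhb12* had log2 differences of -0.14 with vehicle and -0.38 with PTH, neither past the limit.

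The difference between the lines varied with position along the cluster, as the plot by genomic order shows. From *Pcdhb4* to *Pcdhb17*, 12 of 14 genes were lower with vehicle, beside 22.7% of all genes and 49.3% of other chromosome 18 genes with at least 4 CPM. The 14 genes summed to 382 ± 17.7 CPM (SD, n = 3) in WT against 97.5 ± 2.78 CPM (SD, n = 3) in Y428F cells, 3.92-fold lower. With PTH, *Pcdhb10* of this stretch was not called (log2 difference -0.38), whereas *Pcdhb3* before it was called lower (-1.52). The last 5 genes, *Pcdhb18* to *Pcdhb22*, summed to 56.6 ± 3.14 and 48.1 ± 2.09 CPM, 1.18-fold lower. Of these 5, *Pcdhb18* and *Pcdhb22* were lower, with log2 fold changes of -0.66 and -0.29, and *Pcdhb19*, *Pcdhb20* and *Pcdhb21* had values between -0.18 and 0.11, not past the limit. The call of *Pcdhb22* with vehicle (adjusted p = 0.0192) was lost when only library totals were used for scaling. At the 5′ end, *Pcdhb2* and *Pcdhb3* had log2 differences of -0.58 and -0.75 with vehicle, not past the limit, and *Pcdhb1* had 0 counts in every library. These groups of genes were chosen after their values were seen, so they are a description and were not tested. The share of *Pcdhb22* in the beta TPM was 3.10% in WT against 7.96% in Y428F vehicle libraries, and that of *Pcdhb21* was 2.43% and 6.78%.

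**Figure D3:**
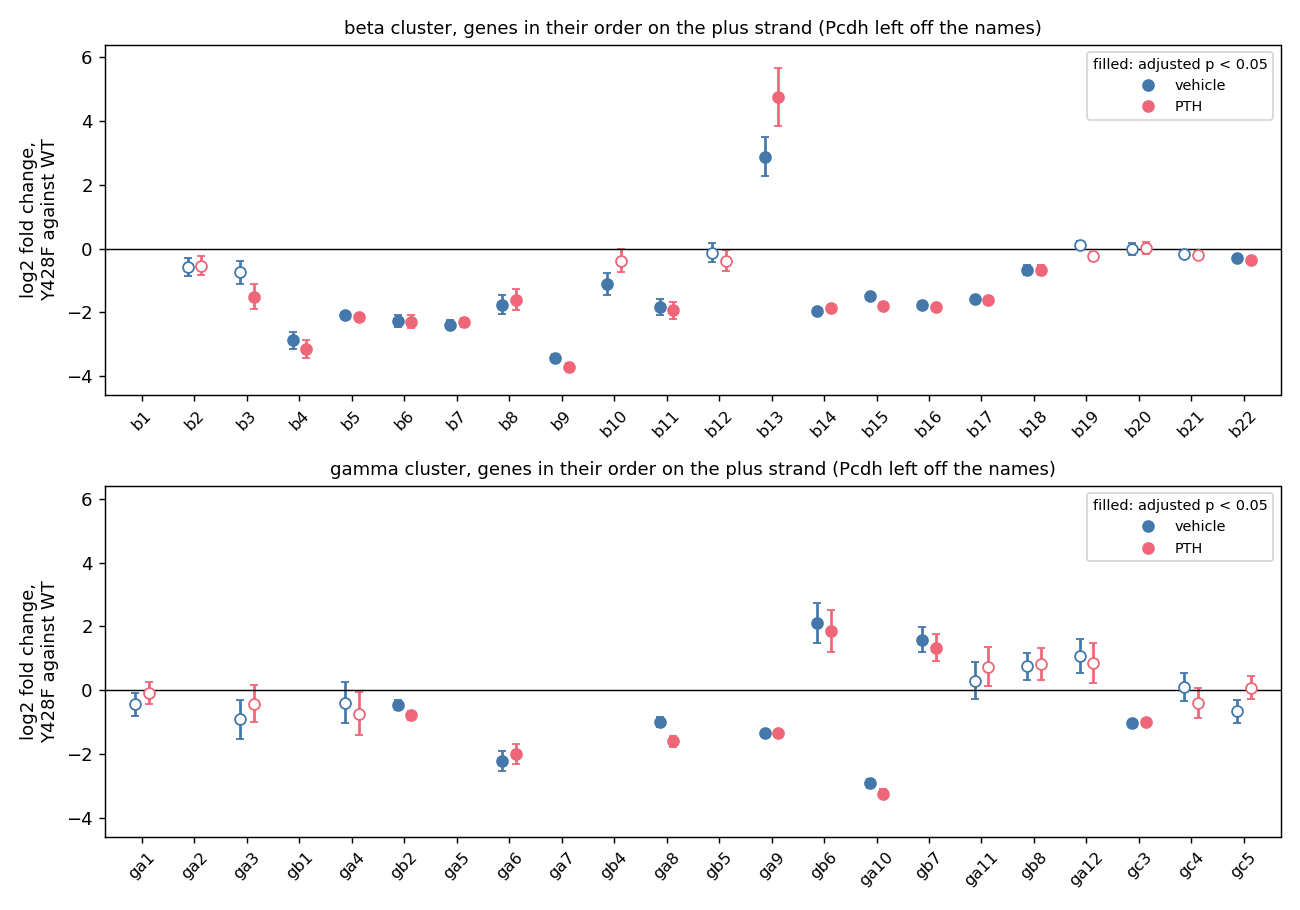
Log2 fold change between Y428F and WT cells (y axis; bars are the standard error) for each gene with a mean of at least 0.5 CPM, in its order along the beta (top) and gamma (bottom) cluster, with vehicle in blue and with PTH in red; gene names without a point had less. Genes from Pcdhb4 to Pcdhb17 lie mostly between -1 and -4 apart from Pcdhb12 and Pcdhb13, those from Pcdhb19 to Pcdhb22 lie near 0, and Pcdhga10 is the lowest gamma gene.

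Gamma protocadherins were also lower in sum, and *Pcdhgc3* set most of that value. The summed expression of the 22 genes was 889, 1067 and 1077 CPM in the WT vehicle libraries and 483, 454 and 460.2 CPM in the Y428F vehicle libraries. It was 2.17-fold lower in Y428F cells with vehicle and 2.15-fold lower with PTH, with no overlap of the libraries. Without *Pcdhgc3*, the remaining 21 genes summed to 173 ± 18.5 CPM (SD, n = 3) in WT against 56.0 ± 0.762 CPM (SD, n = 3) in Y428F cells, a 3.09-fold lower value. The sum over the whole cluster does not depend on how shared reads were divided within it, whereas the sum without *Pcdhgc3* does. Of the 21 gamma genes tested, 6 (28.6%) were lower and 3 (14.3%) higher in Y428F cells with vehicle, beside 22.7% and 22.4% of all genes, so the share of lower genes was near the background. With PTH 6 were lower and 2 higher.

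*Pcdhgc3* (ENSMUSG00000102918.2, from 37939416 to 37975014 on chromosome 18) had 735.5, 893 and 886 CPM in the WT vehicle libraries and 426.5, 397 and 405 CPM in the Y428F vehicle libraries. The lowest WT library was well above the highest Y428F library, with a log2 fold change of -1.03 and an adjusted p of 1.77e-10, and it was also lower with PTH (adjusted p = 2.95e-10). *Pcdhga10* (ENSMUSG00000102222.2, from 37880025 to 37975014), an A-type gene, had the largest fall of the gamma genes. It had 74.6, 82.3 and 95.8 CPM in the WT vehicle libraries and 10.8, 9.81 and 12.7 CPM in the Y428F vehicle libraries, 7.58-fold lower with vehicle (adjusted p = 3.48e-13) and 9.47-fold lower with PTH. *Pcdhga9* had 55.9, 66.7 and 65.1 CPM against 25.9, 25.6 and 22.5 CPM, 2.53-fold lower (adjusted p = 3.26e-10). With vehicle, *Pcdhga10* was above *Pcdhga9* in WT cells (60.1 and 44.8 TPM) and below it in Y428F cells (8.03 and 17.9 TPM).

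Of the 12 A-type gamma genes tested, 4 were lower with vehicle and with PTH, beside 22.7% and 23% of all genes. They were *Pcdhga6*, *Pcdhga8*, *Pcdhga9* and *Pcdhga10*. The other 8 were not past the limit, with log2 differences with vehicle between -0.91 (*Pcdhga3*) and 1.15 (*Pcdhga7*). *Pcdhga8* had 6.93, 7.85 and 8.64 CPM in the WT vehicle libraries and 2.96, 4.55 and 4.10 CPM in the Y428F vehicle libraries, a log2 fold change of -1.01 (adjusted p = 2.31e-05). *Pcdhga6* had 3.23, 2.56 and 2.95 CPM against 0.274, 0.758 and 0.819 CPM, a log2 fold change of -2.22 (adjusted p = 8.80e-06). In both genes the lines did not overlap. The B-type genes that were called went both ways. *Pcdhgb2* was lower, with log2 fold changes of -0.46 with vehicle and -0.79 with PTH, whereas *Pcdhgb7* and *Pcdhgb6*, which lie on each side of *Pcdhga10*, were higher. *Pcdhgb7* had 7, 17 and 18 counts in the WT vehicle libraries and 41, 39 and 50 in the Y428F vehicle libraries, a ratio of 3.03 (interval 2.12 to 4.40, adjusted p = 0.00186). *Pcdhgb6* had 3, 0 and 8 against 13, 16 and 20 counts, a ratio of 4.36 (interval 2.24 to 9.29, adjusted p = 0.00931). Without the third WT vehicle library, which had 8 of the 11 WT counts, the log2 fold change of *Pcdhgb6* moved from 2.09 to 3.31 (adjusted p = 0.00169).

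With PTH, *Pcdhgb7* and *Pcdhgb6* were still higher in Y428F cells, with adjusted p of 0.0144 and 0.0238. For *Pcdhgb7* this call was lost without the third PTH library of WT cells (adjusted p = 0.0741) or of Y428F cells (0.117), and for *Pcdhgb6* without the first or the third PTH library of either line (0.0591 to 0.0812). The remaining gene that was higher with vehicle, *Pcdhgb1*, had 8 counts in the Y428F and 0 in the WT libraries, at least 2.61-fold higher with a floor of 3 pooled counts. With PTH it had 4 counts in each line. The other C-type genes, *Pcdhgc4* and *Pcdhgc5*, had log2 differences of 0.10 and -0.66 with vehicle and -0.41 and 0.08 with PTH, none past the limit.

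Of the 6 non-clustered protocadherins tested for PTH in WT cells, *Pcdh19* was called and the other 5 were not. Over all genes in that comparison, 6.88% were higher and 4.91% lower. *Pcdh19* encodes a delta-type protocadherin that binds classical N-cadherin and is known for its role in epilepsy. *Pcdh18* is a delta-type protocadherin known from developing mesenchyme and brain, and *Pcdh10* is a delta-type protocadherin that recruits the WAVE complex, which drives actin assembly. The 250 bases before the annotated start of each gene are shown for them, since these genes are the most expressed of the class and did not move together. They were read from the GRCm39 assembly at the gene starts of GENCODE vM39, and capitals mark the motif TGACG, the core of the cAMP response element, searched on both strands.
Pcdh19, chrX:132589820-132590069, minus strand: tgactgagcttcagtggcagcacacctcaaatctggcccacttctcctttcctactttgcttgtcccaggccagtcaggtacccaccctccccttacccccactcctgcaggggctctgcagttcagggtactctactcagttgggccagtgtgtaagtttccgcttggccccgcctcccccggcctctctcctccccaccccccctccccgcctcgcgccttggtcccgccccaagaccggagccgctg
Pcdh18, chr3:49711831-49712080, minus strand: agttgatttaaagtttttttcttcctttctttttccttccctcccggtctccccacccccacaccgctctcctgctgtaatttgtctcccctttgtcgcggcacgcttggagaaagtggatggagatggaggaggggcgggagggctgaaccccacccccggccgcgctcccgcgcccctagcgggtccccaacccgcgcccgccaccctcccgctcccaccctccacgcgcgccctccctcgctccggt
Pcdh10, chr3:45332583-45332832, plus strand: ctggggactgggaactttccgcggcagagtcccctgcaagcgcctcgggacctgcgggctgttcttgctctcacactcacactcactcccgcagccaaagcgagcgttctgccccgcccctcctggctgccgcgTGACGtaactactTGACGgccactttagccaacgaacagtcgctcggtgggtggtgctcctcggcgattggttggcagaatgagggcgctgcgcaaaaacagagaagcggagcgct
In windows that also took in the 50 bases from the start, TGACG was found in 20.7% of 21631 protein-coding genes. *Pcdh10* had 2 matches, which begin 116 and 103 bases before its start, and the windows of *Pcdh19* and *Pcdh18* had none. A match is a description of the letters and not a site.

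*Pcdh19* (ENSMUSG00000051323.17, from 132483609 to 132589819 on the X chromosome) rose with PTH in WT cells. It had 83.4, 87.0 and 89.98 CPM with vehicle and 122, 138 and 117 CPM with PTH, so the groups did not overlap. The rise was 1.45-fold (log2 fold change 0.54, standard error 0.069, adjusted p = 0.000205). In Y428F cells it had 56.9, 62.6 and 57.5 CPM with vehicle and 59.6, 82.0 and 67.6 CPM with PTH, where the groups overlapped. The log2 fold change of 0.24 had a standard error of 0.090 and an adjusted p of 0.091, which passed the limit without a filter on low counts, with the replicate block (adjusted p = 0.0336) and without the first PTH library (adjusted p = 0.00838). The difference between these responses was -0.29 (standard error 0.12, adjusted p = 0.631), so the response was not shown to differ. Between the lines, *Pcdh19* was lower in Y428F cells both with vehicle (log2 fold change -0.56, adjusted p = 2.55e-05) and with PTH (-0.85, adjusted p = 7.46e-08).

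*Pcdh18* had 65.1, 67.3 and 69.1 CPM with vehicle and 71.9, 81.6 and 67.7 CPM with PTH in WT cells, and the groups overlapped. In Y428F cells it had 52.8, 53.7 and 53.0 CPM with vehicle and 46.3, 58.3 and 48.2 CPM with PTH. Its changes with PTH were 0.14 in WT and -0.06 in Y428F cells on the log2 scale, not past the limit. Between the lines it was lower in Y428F cells, with log2 fold changes of -0.34 with vehicle (adjusted p = 0.00136) and -0.53 with PTH (adjusted p = 1.01e-05), and the lines did not overlap.

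*Pcdh10* went the other way and was slightly higher in Y428F cells. With vehicle it had 25.2, 18.9 and 20.3 CPM in the WT libraries and 25.2, 26.0 and 26.5 CPM in the Y428F libraries, so the highest WT library was about level with the lowest Y428F library. The log2 fold change of 0.27 (adjusted p = 0.024) was not past the limit without the second or the third vehicle library of either line, with an adjusted p of up to 0.144. With PTH the libraries were clearly apart, with 19.6, 17.8 and 19.04 CPM for WT and 27.5, 25.7 and 27.8 CPM for Y428F cells, a log2 fold change of 0.52 (adjusted p = 0.000129).

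**Figure D4:**
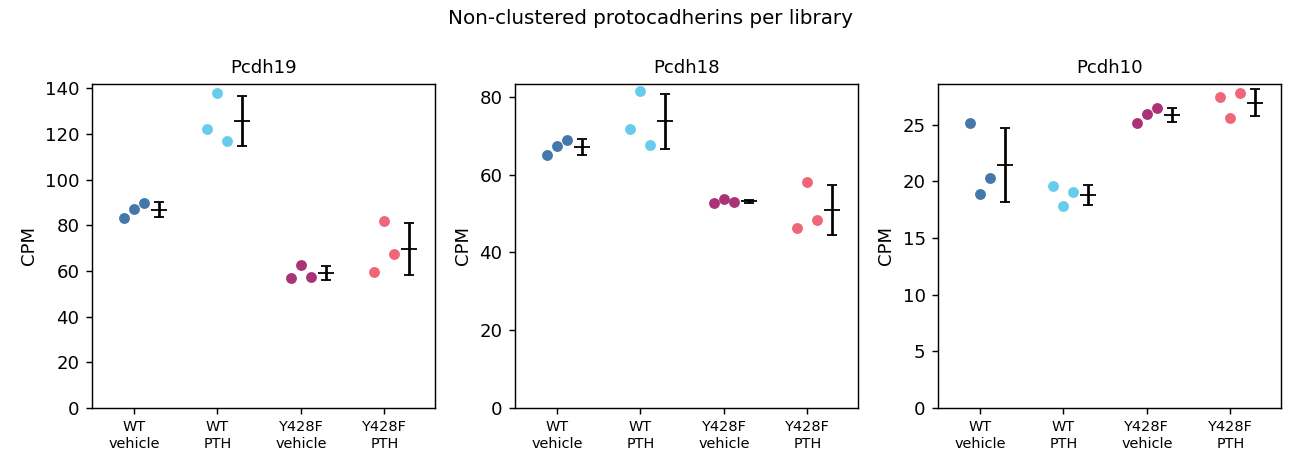
CPM of Pcdh19, Pcdh18 and Pcdh10 in each library (points, 3 per group), with the mean and SD of each group in black beside them. Pcdh19 rises from about 87 to 126 CPM with PTH in WT cells, Pcdh18 is lower and Pcdh10 higher in Y428F cells.

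The other 9 non-clustered genes were low. *Pcdh8*, *Pcdh20* and *Pcdh11x* had 0 counts in every library, *Pcdh9* had 3 counts in all, and none of the others reached a mean of 0.5 CPM over the 12 libraries. *Pcdh15*, a component of the tip links of hair cells in the inner ear, was named after its values were seen. It had 2, 1 and 0 counts in the WT vehicle libraries and 13, 14 and 14 in the Y428F vehicle libraries, a ratio of 13.4 (interval 4.27 to 67.5, adjusted p = 0.00046). With PTH it had 0 counts in WT and 8, 9 and 9 counts in Y428F libraries, at least 8.09-fold higher with the same floor. These levels were under 1 CPM.

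Apart from *Pcdh19*, PTH did not change the protocadherins of WT cells beyond the test's limit. Of 45 genes tested in the fit of the 6 WT libraries, 1 was higher and none was lower, beside 6.88% higher and 4.91% lower of all 15583 genes. At an unadjusted p under 0.05 there were 3 of the 45, beside 25.2% of all genes, and DESeq2's Wald test also called 1. The summed beta expression was 442 ± 18.6 CPM with vehicle and 427.7 ± 4.05 CPM with PTH, and the gamma sum was 1011 ± 105 and 954 ± 62.9 CPM (SD, n = 3 each). *Pcdhgc3* had 798, 835 and 739 CPM with PTH, within the range of the vehicle libraries. For *Pcdhb5* the PTH libraries had 84.0, 86.1 and 88.3 CPM, all just under the vehicle libraries, with a log2 fold change of -0.09 (adjusted p = 0.407).

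In Y428F cells, *Pcdhga8* was the single protocadherin past the limit of the 51 tested, and it fell with PTH. Of all 17691 genes, 6.61% were higher and 5.78% lower. *Pcdhga8* had 2.96, 4.55 and 4.10 CPM with vehicle and 2.496, 2.13 and 2.75 CPM with PTH, with no overlap. Its log2 fold change of -0.65 had a standard error of 0.18 and an adjusted p of 0.0219. It was not past the limit without the second or the third vehicle library (adjusted p = 0.124 and 0.0733) or without the first or the second PTH library (0.0528 and 0.0857). In WT cells *Pcdhga8* had 7.19, 7.93 and 7.34 CPM with PTH (log2 fold change -0.05). *Pcdhga10* and *Pcdhb15* had log2 fold changes of -0.43 and -0.33 with PTH in Y428F cells, with adjusted p of 0.0959 and 0.0682. At an unadjusted p under 0.05 there were 7 of the 51 protocadherins, beside 24.4% of all genes.

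**Figure D5:**
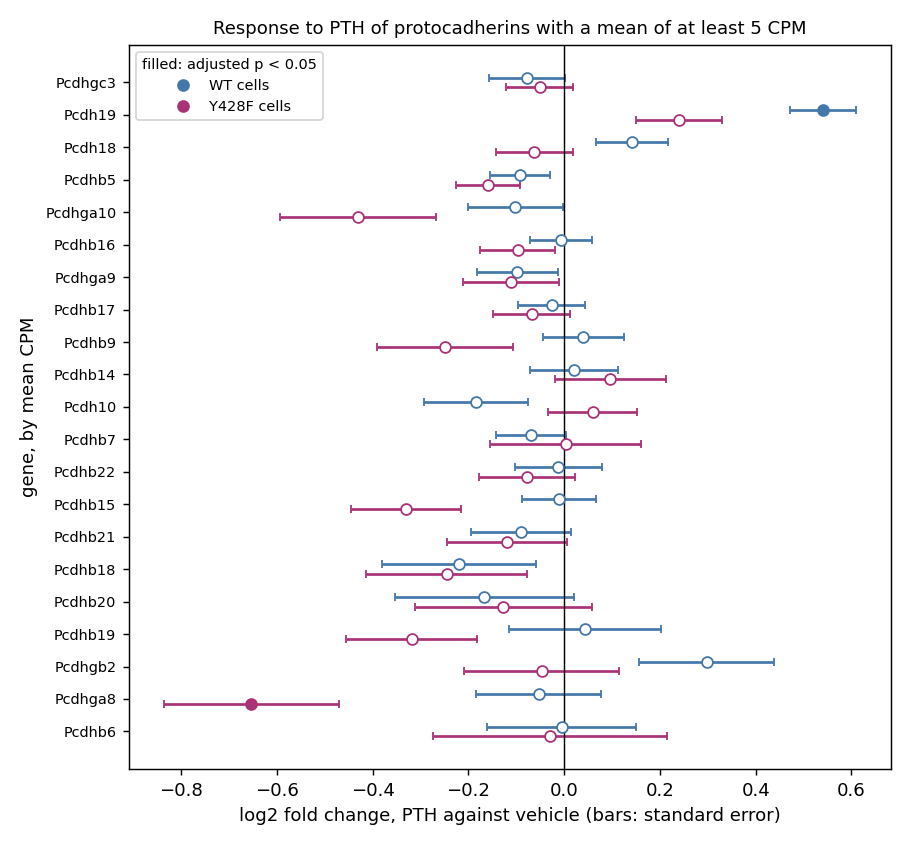
Log2 fold change with PTH (x axis; bars are the standard error) of the 21 protocadherins with a mean of at least 5 CPM, in WT cells (blue) and Y428F cells (purple), ordered by mean CPM. The filled points, which passed an adjusted p of 0.05, are Pcdh19 in WT cells at 0.54 and Pcdhga8 in Y428F cells at -0.65.

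No protocadherin of 51 tested with edgeR was called for a difference in PTH response between the lines, while 0.17% of all genes had a higher and 0.243% a lower response in Y428F cells. Differences too small for 3 libraries per group could be missed. The lowest adjusted p was 0.594, for *Pcdhga8* with a difference of -0.59 on the log2 scale. At an unadjusted p under 0.05 there were 4 of the 51 protocadherins, near the 7.05% of all genes, and DESeq2's Wald test called 0. For *Pcdhgc3* the difference was 0.03 (standard error 0.099) and for *Pcdhb5* it was -0.06 (standard error 0.086).

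Genes around the clusters were compared, since the lines also differed in expression over whole chromosomes. With protocadherins left out, 14.7% (chromosome 10) to 56.3% (chromosome 9) of a chromosome's genes with at least 4 CPM were called lower with vehicle. Chromosome 18 was thus not the most shifted. Among the 268 other genes of chromosome 18 with at least 4 CPM, the median log2 difference with vehicle was -0.19, 49.3% were called lower and the lowest 5% were below -1.13. Of the clustered protocadherins with a mean of at least 4 CPM, *Pcdhb5*, *Pcdhb6*, *Pcdhb7*, *Pcdhb9*, *Pcdhb14* to *Pcdhb17*, *Pcdhga9* and *Pcdhga10* were below that value, whereas *Pcdhgc3* at -1.03, *Pcdhga8* at -1.01, *Pcdhb18* at -0.66, *Pcdhgb2* at -0.46 and *Pcdhb22* at -0.29 were lower but not below it. *Pcdhb19*, *Pcdhb20* and *Pcdhb21*, also above 4 CPM, were not called. Of 15 genes beside or inside the clusters, 5 were lower and 1 was higher in Y428F cells with vehicle, beside 22.7% and 22.4% of all genes. *Zmat2*, before the alpha cluster, had a log2 difference of 0.04, and *Diaph1*, after the gamma cluster, had 0.03, neither past the limit. *Taf7*, a subunit of TFIID that lies between the beta and gamma clusters, was lower at 9.11 ± 1.66 and 5.63 ± 1.01 CPM (SD, n = 3, log2 fold change -0.69), and *Hdac3*, a histone deacetylase beyond *Diaph1*, was lower at -0.56. The part of the chromosome's shift in the lower protocadherin expression was not tested.

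Factors known for promoter choice and chromatin in the clusters were compared as well. Of 19 such genes, 8 were higher and 4 lower in Y428F cells with vehicle, beside 22.4% and 22.7% of all genes, so the share of lower genes was near the background. *Setdb1*, a histone H3 methyltransferase known to bear on the topology of this locus in neurons, had 207 ± 15.1 CPM in WT against 97.8 ± 0.569 CPM in Y428F cells (SD, n = 3 each), a log2 fold change of -1.08 (adjusted p = 6.53e-12). *Setdb1* was also lower with PTH in both lines, by -0.29 in WT and -0.21 in Y428F cells. The cohesin subunits *Rad21* and *Smc3* were higher in Y428F cells, with log2 fold changes of 0.65 and 0.51, and so were *Ctcf* at 0.27, *Smchd1*, known to silence clustered protocadherins, at 0.54, and the maintenance methyltransferase *Dnmt1* at 0.45. The de novo methyltransferase *Dnmt3a* was lower at -0.35. Their part in the protocadherin differences was not tested.

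Of 18 genes tested for cleavage and cytoplasmic partners of protocadherins, 7 were higher and 3 lower in Y428F cells with vehicle, beside 22.4% and 22.7% of all genes. *Ptk2*, the focal adhesion kinase that binds the constant part of alpha and gamma proteins, was higher at 124 ± 5.80 against 80.1 ± 5.44 CPM (SD, n = 3, log2 fold change 0.63). *Wasf1*, a WAVE complex subunit, was higher at 0.69, and *Adam10*, the protease that sheds their outer part, was lower at -0.30. With PTH, 3 of the 17 tested were higher in WT and 3 of the 18 tested in Y428F cells, beside 6.88% and 6.61% of all genes, and none was lower.

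Cell type markers were checked beside these results. The stromal markers were abundant, with *Col1a2* the highest, and 8 of 10 were lower in Y428F cells with vehicle, beside 22.7% of all genes. Their sum was then 26464 ± 1701 CPM in WT against 18288 ± 683 CPM in Y428F cells (SD, n = 3 each). *Alpl*, a marker of the osteoblast lineage, was under 0.3 CPM on average in every group. The 7 neuronal markers summed to between 0.222 and 0.884 CPM in any library, *Syt1* being the highest, and *Snap25* had 0 counts, so these markers were at or near 0. With vehicle, blood markers summed to a mean of 1.67 CPM in WT against 3.56 CPM in Y428F cells, with *Ptprc* the highest and higher in Y428F cells, and epithelial markers to 0.624 and 3.67 CPM, with *Krt8* the highest and *Epcam* at 0 counts. Endothelial markers summed to 1.42 and 8.91 CPM, most of it *Cdh5*, and *Pecam1* was under 0.3 CPM on average in every group. The part of these shifts in the protocadherin values was not tested.

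The windows of all 71 genes were searched for short motifs on both strands, from 250 bases before to 50 bases from the annotated start. CGCT, the core of the conserved promoter element of the clustered genes, was found in 14 of 15 alpha, 21 of 22 beta, 21 of 22 gamma and 11 of 12 non-clustered genes, and in 62.4% of all protein-coding genes. TGACG was found in 6 alpha genes, in 0 of 22 beta genes, in 1 gamma gene and in 3 non-clustered genes. GGAATG, the motif of TEAD factors through which YAP acts, was found in 4 beta genes, 2 gamma genes and none of the alpha or non-clustered genes, and in 14.5% of all genes. The 4 beta genes were *Pcdhb1*, *Pcdhb6*, *Pcdhb8* and *Pcdhb13*, of which *Pcdhb6* and *Pcdhb8* were lower, *Pcdhb13* was higher and *Pcdhb1* had no counts. The 2 gamma genes were *Pcdhga6*, which was lower, and *Pcdhga3*, which was not past the limit.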

How the data were processed

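Per the methods, the authors mapped reads with STAR 2.7.10b to GRCm39 with GENCODE vM31 (basic) and deposited RSEM expected counts per gene, not scaled for library size. They were rounded to whole numbers. In R 4.3.3, edgeR 4.0.16 fitted a quasi-likelihood model with TMM normalization to genes whose counts totalled at least 10, with p-values adjusted by Benjamini-Hochberg over all of them, on the 6 WT libraries for PTH in WT cells and on all 12 otherwise. CPM used TMM factors over all 12 libraries, and TPM used exon lengths of GENCODE vM39, to which 56236 of 56980 gene identifiers were matched and 744 were not. Groups came from titles. The labels do not say that replicates are separate cultures, so p-values measure the spread between these samples. Over the 12 pairs of replicates, chi-square per degree of freedom was 2.93 to 15.2, above counting noise. Intervals and floors cover counting error only.

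Named in full were the 3 highest members of each class by mean CPM and, per comparison and class, of the members past an adjusted p of 0.05 with a mean of at least 0.5 CPM, up to 2 in each direction with the greatest log2 fold change. Others that are named were chosen after their values were seen. The members and gene lists were chosen with earlier results of these data known, and the lists come from general knowledge. Alternatives were DESeq2 1.42.0, other scaling, other filters, a stricter limit, a replicate block, all 12 libraries for PTH in WT cells, and each library left out in turn. The tests were tried on simulated counts.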

Additional observations from a re-analysis of the deposited data

How the results depend on the processing

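The count of protocadherins changed with PTH in WT cells was 1, *Pcdh19*, under every alternative run. In Y428F cells the count of 1 became 0 at an adjusted p under 0.01 with a log2 fold change beyond 0.3, 2 with DESeq2's Wald test (*Pcdhga10* added), 2 with library totals only (*Pcdhb15* added), 3 without a filter on low counts (*Pcdh19* and *Pcdhga10* added) and 2 with the replicate block (*Pcdh19* added), and leaving out single libraries gave 0 to 2. Between the lines the counts were 23 to 28 for vehicle and 25 to 27 for PTH, and no difference in response was called under any alternative. The deviations of same-numbered libraries had a mean correlation of 0.0292 over 18 pairs (range -0.224 to 0.386). Differently numbered libraries were not compared, so whether the numbers pair some of the samples was not tested. With the replicate block the other counts were 1, 28, 27 and 0. Of the values for single named genes under the alternatives, 422 kept their direction and their side of the limit, 14 were no longer past it, 3 came past it and 0 reversed. The summed non-clustered level in Y428F against WT cells with vehicle moved from -0.33 to -0.28 on the log2 scale with library totals only, and the other 41 values of class sums moved by less than 1 SD. Genes with few counts (*Pcdhb13*, *Pcdhgb6*, *Pcdhgb1*, *Pcdh15* and all alpha genes) are limited by depth.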

Other observations

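Cadherins outside the protocadherin family differed between the lines as well. Of 8 cadherins tested with vehicle (classical, type II and *Cdh13*), 6 were higher and 2 lower in Y428F cells, beside 22.4% and 22.7% of all genes. Of the higher ones, *Cdh2* and *Cdh10* reached the filter of 10 counts in total only through the Y428F libraries, so their direction was partly fixed by it. *Cdh11*, the main cadherin of mesenchymal and osteoblast lineage cells, had 118 ± 8.54 CPM in WT against 2.07 ± 0.307 CPM in Y428F cells (SD, n = 3 each), with a log2 fold change of -5.82 and an adjusted p of 7.02e-20 in edgeR. *Cdh13*, a cadherin with a lipid anchor, was lower at 154 ± 12.1 and 97.4 ± 1.44 CPM. *Cdh2*, the N-cadherin to which PCDH19 binds, had 3.24 ± 0.311 CPM in Y428F cells and was near 0 in WT cells, and *Cdh5* had 0.810 ± 0.282 and 7.95 ± 0.865 CPM. None of these genes was called for PTH where it was tested, and *Cdh2* had too few counts to be tested for PTH in WT cells.

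Of the large atypical cadherins, 3 of 6 tested were called for PTH in WT cells (*Fat1*, *Dchs1* and *Dchs2*) and 2 of 8 in Y428F cells (*Dchs1* and *Dchs2*), and the others were not. Over all genes 6.88% were higher and 4.91% lower in WT cells, and 6.61% and 5.78% in Y428F cells. *Fat1* rose in WT cells from 406 ± 66.1 to 580 ± 49.1 CPM (SD, n = 3 each, log2 fold change 0.52, adjusted p = 0.00391), and in Y428F cells its log2 fold change was 0.19 (adjusted p = 0.368). The difference between these responses was -0.32 (adjusted p = 0.776). The Dachsous cadherins *Dchs1*, the ligand of FAT4, and *Dchs2* moved in opposite directions with PTH in both lines. *Dchs1* fell by 0.77 in WT and by 0.87 in Y428F cells, and *Dchs2* rose by 0.40 and 0.55 on the log2 scale.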
